A study of Mus musculus with 8 samples.

Results

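S100 proteins are small vertebrate calcium sensors with a pair of EF-hands, the helix-loop-helix motif that holds a calcium ion. Most of them work as dimers: calcium opens a surface on the dimer that docks onto annexins, cytoskeletal proteins and other targets. Most S100 genes stand in a row on mouse chromosome 3, within the region that also holds the genes of the cornified skin. S100g (calbindin-D9k) stands apart on the X chromosome and carries calcium through the cytosol of absorptive enterocytes.

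The 10 genes described here are S100a1, S100a4, S100a6, S100a9, S100a10, S100a11, S100a13, S100a14, S100a16 and S100g, of 17 S100 genes and 53801 genes in all. The family was chosen from measured values of these libraries, namely the higher level of S100a6 in the knockouts, so the difference in S100a6 is a description and takes no p-value. The question is whether its chromosome 3 neighbours differ with it. Of the 10 genes, 8 passed the filter on low counts and were tested. S100a4 and S100a9 did not pass.

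RNA was measured in Paneth cells, the lysozyme- and defensin-secreting cells of the small intestinal crypt base, of 4 mice with β-cat GOF; Mll1+/- (the controls, numbered 1 to 4) and of 4 with β-cat GOF; Mll1-/- (the knockouts, numbered alike). Both groups carry the stabilised β-catenin that lacks exon 3 and a tamoxifen-inducible Cre under the Lgr5 promoter, and both received 1 mg tamoxifen on 3 consecutive days and were taken 10 d after induction. The controls keep 1 allele of Mll1, a histone H3 lysine 4 methyltransferase, and there was no group without β-cat GOF. With this Cre recombined crypts lie beside non-recombined ones, and the gate, EpCAM+ Cd24+ with a CD45 stain, holds no marker of recombination. From immunohistochemistry for Mll1, the study reports that all crypt cells, Paneth cells among them, lacked the protein when sorted. The study's paragraph on the sorting names the Mll1 alleles without β-cat GOF, which its results and the series design give for both groups. It calls the animals littermates, and no label says which of them share a litter. Ages were not used here.

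Totals on genes lay between 13037832 and 14380240 counts per library. Knockout 3 stood apart, detecting 19662 genes where the other libraries detected 22623 to 26074, and a scaling factor of 0.632 against 1.22 to 1.34 in the other knockouts. Results that rest on it are given with and without it. Kmt2a, which encodes Mll1, had 719, 469, 268 and 284 counts in the controls and 523, 447, 328 and 468 in the knockouts, summed over all its exons, so that this count does not check the deletion. The summed level of 14 Paneth cell markers overlapped between groups, as did the sums of goblet, enterocyte, tuft, enteroendocrine and stem cell markers. Gene by gene, all 11 tested enteroendocrine markers had a negative log2 fold change (median -1.84, 7 at an unadjusted p under 0.05), as had all 10 tuft markers (median -0.84, 2 at that level) and 6 of 8 enterocyte markers (median -0.75, 4 at that level), where 2.53% of all tested genes were lower and 4.35% higher at that level. Of the 9 stem cell markers 2 were higher and 3 lower at that level, of the 12 goblet cell markers 2 were lower, and of the Paneth cell markers none was either. edgeR called none of these, and called Rgs13 once the library set was a term of the fit and 2 stem cell markers without knockout 3. DESeq2 called 5 (Chga, Neurod1, Rgs13, Fabp2 and Tnfrsf19) and limma-voom 3 (Neurod1, Fabp2 and Tnfrsf19), against 1.03% and 0.752% of all tested genes. Their part in the S100 values was not tested. In sorted pools such as these, fewer cells of a type and less RNA per cell cannot be told apart. Levels are normalized CPM (counts scaled to a common library size), with library sizes adjusted by edgeR's TMM factors.

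The chromosome 3 genes form 2 groups, given here in GRCm38. In rising coordinates the first group runs from S100a1 (90511034-90514392, minus strand) through S100a13 (90514435-90524581), S100a14 (90526856-90528837), S100a16 (90537254-90543151), S100a4 (90603771-90606045) and S100a6 (90612882-90624181) to S100a9 (90692632-90695721, minus strand). S100a11 (93520488-93526287) and S100a10 (93555080-93564643) lie 2.90 Mb and 2.93 Mb beyond S100a6. S100g lies on chromosome X at 162961992-162964599, minus strand. The upstream stretches of S100a6, of its nearest counted neighbour S100a4 and of S100a16, the nearest other S100 gene that was tested, are shown because the question turns on them. The 42 bases between S100a1 and S100a13, which are transcribed away from each other, are shown because both annotated genes begin at their ends. They come from the RefSeq promoter table (GRCm38.p6), plus strand, 5′ to 3′, and capitals mark a TATA box.
S100a6, chr3:90612644-90612881: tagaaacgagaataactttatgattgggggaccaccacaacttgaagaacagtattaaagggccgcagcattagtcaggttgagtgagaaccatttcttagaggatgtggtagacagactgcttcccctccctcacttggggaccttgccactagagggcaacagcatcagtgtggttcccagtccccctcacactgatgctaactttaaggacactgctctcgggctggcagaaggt
S100a4, chr3:90603520-90603769: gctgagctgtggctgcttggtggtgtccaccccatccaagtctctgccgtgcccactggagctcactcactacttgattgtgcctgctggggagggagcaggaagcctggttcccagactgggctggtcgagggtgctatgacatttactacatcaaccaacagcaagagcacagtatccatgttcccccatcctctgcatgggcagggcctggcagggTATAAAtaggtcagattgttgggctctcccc
S100a16, chr3:90537004-90537253: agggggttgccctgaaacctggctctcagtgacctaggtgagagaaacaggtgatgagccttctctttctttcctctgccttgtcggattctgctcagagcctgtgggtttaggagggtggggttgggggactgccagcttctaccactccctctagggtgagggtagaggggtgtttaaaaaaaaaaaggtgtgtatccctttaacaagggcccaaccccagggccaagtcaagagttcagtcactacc
S100a1 and S100a13, chr3:90514393-90514434: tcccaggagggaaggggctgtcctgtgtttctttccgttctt

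Windows from 250 bases before to 50 after the RefSeq start were held for 8 of the 10 genes. S100a10 and S100a14 had none. They were searched for the Tcf/Lef words CTTTGAA or CTTTGAT or CTTTGTA or CTTTGTT, the AP-1 words TGACTCA or TGAGTCA, the GATA words AGATAA or TGATAA, on both strands, and for TATAAA on the gene's strand. Of 32817 distinct promoters, 16.9% held a Tcf/Lef word, 5.21% an AP-1 word, 18.6% a GATA word and 8.33% a TATA box. The windows of S100a6, S100a16, S100a1 and S100a13 held none of these words. S100a4 held a TATA box starting at -31, and S100g held a Tcf/Lef word at -44 and TATAAA at 0, on the annotated start itself. S100a11 held AP-1 words at -136 and -38 and a GATA word at -248. S100a9 held a GATA word at -30 and TATAAA at 0. A match is a description of letters and not a binding site.

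S100a6 (calcyclin; ENSMUSG00000001025), a small dimer that binds annexins and the calcyclin-binding protein Cacybp, was high in every knockout. The counts were 77, 33, 112 and 71 in the controls, in order, and 3005, 2636, 779 and 1676 in the knockouts. Its level was 4.83, 2.62, 10.05 and 5.60 CPM in the controls and 179, 151, 91.5 and 102 CPM in the knockouts. The groups lay far apart: the lowest knockout was 9.10-fold above the highest control.

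The mean of S100a6 went from 5.78 ± 3.12 CPM (SD, n = 4) to 131 ± 41.2 CPM (SD, n = 4), a log2 fold change of 4.51 (SE 0.39), or 22.7-fold. Among the 13439 tested genes ordered by level per kb of exon, it held places 1989 to 5560 in the controls and 162 to 253 in the knockouts. The libraries carry 2 runs of label numbers, called library sets here, with controls 1 and 2 and knockouts 1 and 2 in set 1. The log2 fold change was 5.45 within set 1 and 3.64 within set 2, and it was 4.64 without knockout 3. The 2 knockouts of set 1 were above those of set 2.

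**Figure D1:**
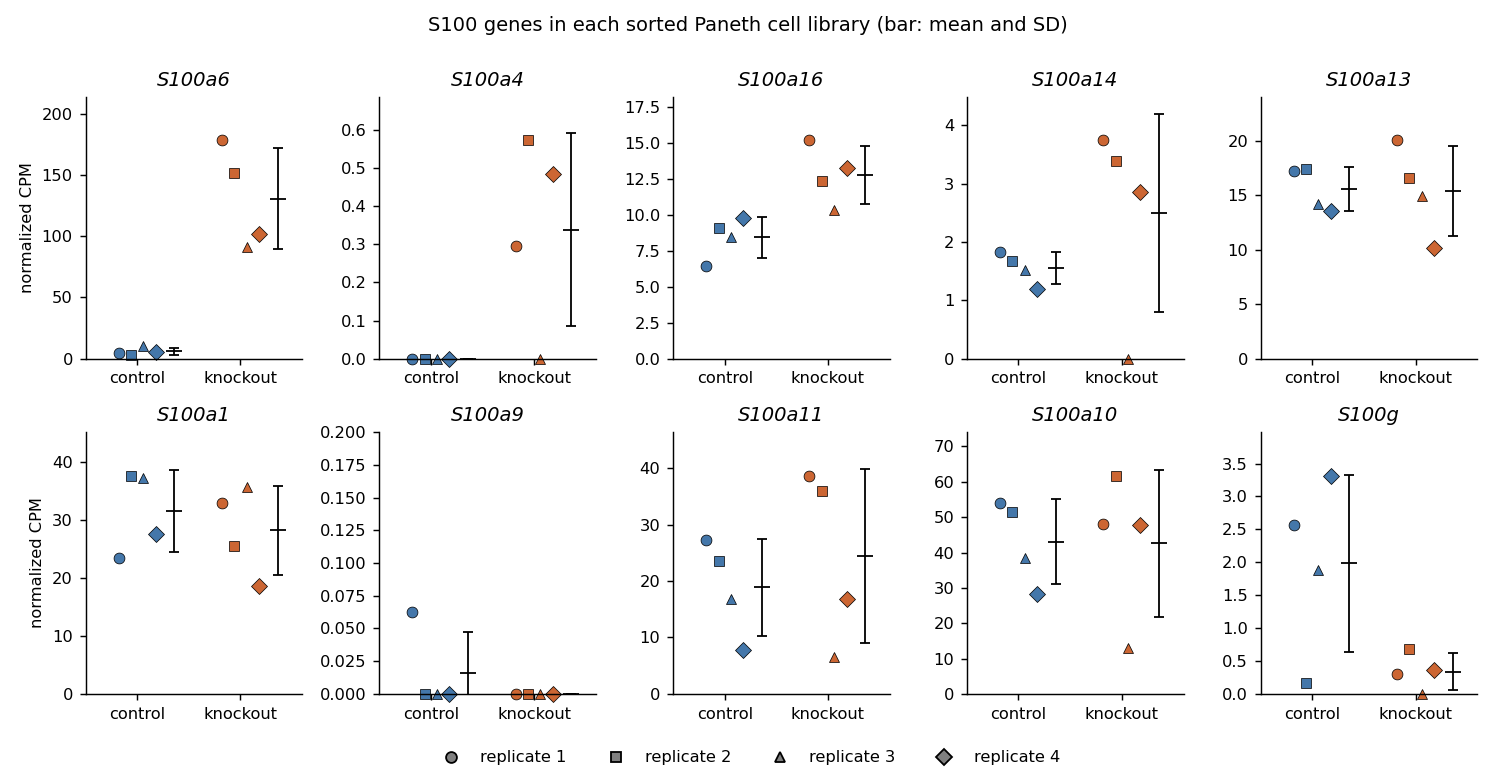
Normalized CPM (linear axes from 0, a scale of its own for each gene) of the 10 S100 genes in 4 control and 4 knockout libraries, with a marker shape for each replicate number and bars for the group mean and SD. S100a6 and S100a16 are the tested genes whose groups do not overlap, and knockout 3 is the lowest library for S100a10 and S100a11 and at 0 for S100a14, S100a4 and S100g.

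Of the other 7 tested S100 genes, none was called with edgeR's quasi-likelihood test, where a call needs an adjusted p no higher than 0.05 and a log2 difference no smaller than 0.5, against 0.186% of all tested genes. At an unadjusted p under 0.05 there were 2, S100a16 higher and S100g lower, against 4.35% higher and 2.53% lower among all tested genes, and neither DESeq2 nor limma-voom called any, where they called 1.03% and 0.752% of all tested genes. Their median log2 fold change was -0.01, against 0.01 over all tested genes, with 3 above and 4 below 0. The groups did not overlap in 1 of the 7, S100a16, against 4.52% of all tested genes.

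S100a16 is a broadly expressed member whose second EF-hand is the main calcium site. Its level was 6.46, 9.13, 8.44 and 9.79 CPM in the controls and 15.2, 12.4, 10.3 and 13.3 CPM in the knockouts, so that each knockout stood above each control, the closest pair being 9.79 and 10.3 CPM. The mean went from 8.45 ± 1.44 to 12.8 ± 2.02 CPM (SD, n = 4 each), with a log2 difference of 0.60 (SE 0.22, adjusted p = 0.577 with edgeR). It was 0.83 within set 1 and 0.39 within set 2, with adjusted p-values of 0.25 and 0.999.

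S100a14, an epithelial member with a degenerate second EF-hand, had 29, 21, 17 and 15 counts in the controls and 63, 59, 0 and 47 in the knockouts. In 3 knockouts the count was above every control, and in knockout 3 it was 0, which allows up to 0.352 CPM (3 counts, counting error only). The level went from 1.55 ± 0.27 to 2.50 ± 1.70 CPM (SD, n = 4 each). The log2 fold change was 0.71 (SE 0.73, adjusted p = 0.943 with edgeR) and 1.09 without knockout 3 (adjusted p = 0.203).

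S100a1 and S100a13, whose 5′ ends lie 42 bases apart, did not pass the test. S100a1, best known from muscle, where it acts on the calcium pump and release channel, had 374, 474, 415 and 350 counts in the controls and 555, 443, 304 and 306 in the knockouts. Its level was 31.5 ± 7.08 and 28.2 ± 7.74 CPM (SD, n = 4 each), with a log2 difference of -0.16 (SE 0.24, adjusted p = 0.97 with edgeR). S100a13, which takes part in the release of FGF1 and interleukin-1α, was at 15.6 ± 2.02 and 15.4 ± 4.14 CPM (SD, n = 4 each), with a log2 difference of -0.02 (SE 0.23, adjusted p = 0.997 with edgeR). Its sign turned in several alternatives. The groups overlapped in both genes.

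S100a4 and S100a9 lie on either side of S100a6 and were near or at 0. S100a4, known from motile mesenchymal cells, where it binds non-muscle myosin, was at 0 counts in every control and at 5, 10, 0 and 8 in the knockouts. The knockout mean of 0.339 CPM, with knockout 3 at 0, was at least 1.46-fold higher than the mean floor of 3 counts in each control library, and the exact two-sided permutation test over 70 assignments gave p = 0.143 for the difference in mean CPM. S100a4 shares 51.7% of its exon bases with Gm42674 on the same strand, which had 0 counts in every library. How reads on the shared bases were assigned is not given. If they were counted for neither gene, the counts of S100a4 are too low in both groups. S100a9, the calprotectin subunit of neutrophils, had 1 count in control 1 and 0 in the other 7 libraries, and its partner S100a8 had 2 counts in all. The summed level of 10 neutrophil markers was 2.21 to 2.70 CPM in the controls and 1.58 to 4.93 CPM in the knockouts, with Camp at 0 throughout, and that of 15 immune cell markers 17.2 to 26.8 and 16.2 to 20.1 CPM. That of 17 stromal and endothelial markers was 5.05 to 7.77 CPM and 5.63 to 7.52 CPM.

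By level per kb of exon, the distant pair S100a10 and S100a11 were among the higher genes in both groups. They held places 318 to 973 of the 13439 tested genes in the controls and, but for knockout 3, 244 to 517 in the knockouts. S100a10 (p11), which has lost its calcium sites and forms a tetramer with annexin A2, had 863, 649, 427 and 359 counts in the controls and 808, 1075, 111 and 789 in the knockouts. Knockout 3 was the lowest of the 8 libraries, and the other 3 knockouts lay within the range of the controls or above it. The log2 fold change was -0.01 (SE 0.38, adjusted p = 0.998 with edgeR) and 0.28 without knockout 3.

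S100a11, which binds annexin A1, had 436, 297, 188 and 99 counts in the controls and 651, 626, 56 and 276 in the knockouts. The knockouts of set 1 were above all controls and knockout 3 was below all of them. The log2 fold change was 0.38 (SE 0.49, adjusted p = 0.965 with edgeR) and 0.68 without knockout 3 (adjusted p = 0.594). The values of S100a11 are uncertain: its transcript matches the annotated copies Gm12854 over 297 of 511 bases at 99.0% identity and Gm7665 at 98.7%. Only uniquely mapped reads were counted, and Gm12854 had 553 counts in all and Gm7665 had 295, beside 2629 for S100a11.

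S100g had 41, 2, 21 and 42 counts in the controls and 5, 12, 0 and 6 in the knockouts. In 3 controls the count was above every knockout, and control 2 was below 3 of the 4 knockouts. The mean went from 1.98 ± 1.35 to 0.338 ± 0.283 CPM (SD, n = 4 each), with a log2 difference of -2.43 (SE 0.85, adjusted p = 0.531 with edgeR). Without knockout 3 it was -2.12 (adjusted p = 0.301). The summed level of 12 enterocyte markers was 125 to 315 CPM in the controls and 82.6 to 238 CPM in the knockouts, with 6 of the 8 tested negative, and its part in the values of S100g was not tested.

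The 7 S100 genes that are no members were at or near 0. S100b had 47 counts over the 8 libraries, S100z had 4, and S100a2, S100a3, S100a7a and S100a8 had 2 each. S100a5, which lies 1.10 kb from S100a6 and closer to it than any other S100 gene, had none. None of the 7 fused-type S100 genes of the same chromosome, such as filaggrin and hornerin, passed the filter.

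Levels were set against each other per kb of exon. In the controls the order was S100a1 at 45.4 ± 10.2, S100a11 at 37.0 ± 16.7, S100a10 at 35.5 ± 9.90, S100a13 at 21.8 ± 2.83, S100a16 at 5.23 ± 0.89, S100a6 at 4.23 ± 2.28, S100g at 4.13 ± 2.81 and S100a14 at 0.90 ± 0.16 CPM per kb (SD, n = 4 each). The ranges of neighbours in this order overlapped, except between S100a13 and S100a16. In the knockouts S100a6 stood first, at 95.7 ± 30.1 CPM per kb, and was above S100a11, at 47.9 ± 30.2, in each of the 4 libraries, although the ranges over libraries overlapped. S100a1 followed at 40.6 ± 11.1, S100a10 at 35.2 ± 17.1 and S100a13 at 21.6 ± 5.79 CPM per kb. S100a16 was at 7.92 ± 1.25, and its range overlapped neither that of S100a13 nor that of S100a14, at 1.45 ± 0.99 CPM per kb.

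S100a6 took 1.09% to 4.73% of the summed per-length level of the 8 genes in the controls and 36.5% to 39.5% in the knockouts, knockout 3 included. Within a library the ratio of S100a6 to another S100 gene does not depend on the scaling between libraries. The per-length ratio of S100a6 to S100a1 was 0.035 to 0.137 in the controls and 1.30 to 3.02 in the knockouts. Its ratio to S100a16 was 0.339 to 1.41 in the controls and 9.05 to 14.4 in the knockouts. Like the fold change these ratios are descriptions.

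**Figure D2:**
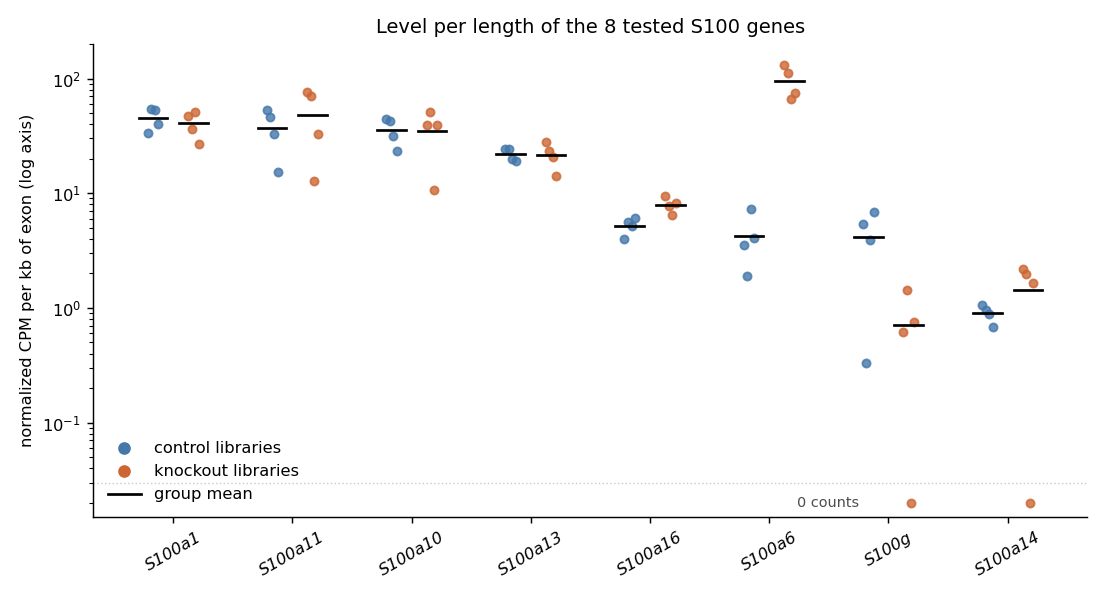
Normalized CPM per kb of exon (log axis) of the 8 tested S100 genes, in the order of their control means, with a point for each library and a line for each group mean. S100a6 is the sixth gene in the controls and the first in the knockouts, at 95.7 CPM per kb, and the points on the lowest line are knockout 3 with 0 counts of S100g and S100a14.

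The neighbours of S100a6 were then read from the same fit. Of 70 annotated genes within 1 Mb of it, 31 were tested and none was called by edgeR, DESeq2 or limma-voom, against 0.186%, 1.03% and 0.752% of all tested genes. At an unadjusted p under 0.05, 1 of the 31 was higher, S100a16, against 4.35% of all tested genes, and none was lower. The 31 log2 fold changes lay between -0.84 and 0.86 with a median of -0.004, against 4.51 for S100a6.

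The tested genes that flank S100a6 are S100a14 and S100a16 on the lower side, with gaps of 84.0 kb and 69.7 kb, and 2 unnamed RNAs on the upper side. Gm19739, 27.5 kb away, was at 4.57 ± 1.46 and 4.87 ± 2.64 CPM (SD, n = 4 each), with a log2 difference of 0.11 (SE 0.44). 4930529C04Rik, at 447.5 kb, was at 6.09 ± 0.90 and 4.97 ± 1.15 CPM (SD, n = 4 each), with a log2 difference of -0.30 (SE 0.27). The adjusted p-values of edgeR were 0.995 and 0.92, and both pairs of groups overlapped.

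Besides S100a16, the groups did not overlap in 2 of the 31 genes, which are named after their values were seen. The vesicle-transport GTPase gene Rab13 had a log2 fold change of 0.86 (SE 0.45, adjusted p = 0.788 with edgeR), and the nuclear pore-like gene Nup210l one of -0.84 (SE 0.51, adjusted p = 0.853 with edgeR). Both were at low levels, with means of 1.36 and 2.48 CPM for Rab13 and of 1.12 and 0.607 CPM for Nup210l. That makes 3 of 31, where 4.52% of all tested genes did not overlap.

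Within 0.25 Mb, 11 genes were tested and within 2 Mb 70, again with none called by edgeR, against 0.186% of all tested genes. At an unadjusted p under 0.05, 5 of the 70 were higher (S100a16, Syt11 and 3 Sprr2a genes) and none lower, against 4.35% and 2.53% of all tested genes. In 4 higher and 1 lower the groups did not overlap, against 4.52% of all tested genes in either direction. The largest values within 2 Mb, seen after the fact, were those of the cornified envelope genes Sprr2a1, Sprr2a2 and Sprr2a3, about 1.6 Mb away. Sprr2a1 was at 1.00, 1.11, 0.718 and 0.237 CPM in the controls and 1.72, 4.94, 8.93 and 61.3 CPM in the knockouts. Its groups did not overlap, and knockout 4 held most of the summed level. The log2 fold changes of the 3 genes were 4.62, 4.52 and 3.90, with adjusted p-values of 0.255, 0.344 and 0.332 in edgeR. The annotated spans of Sprr2a1 and Sprr2a2 overlap, and the values of these paralogs are uncertain.

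**Figure D3:**
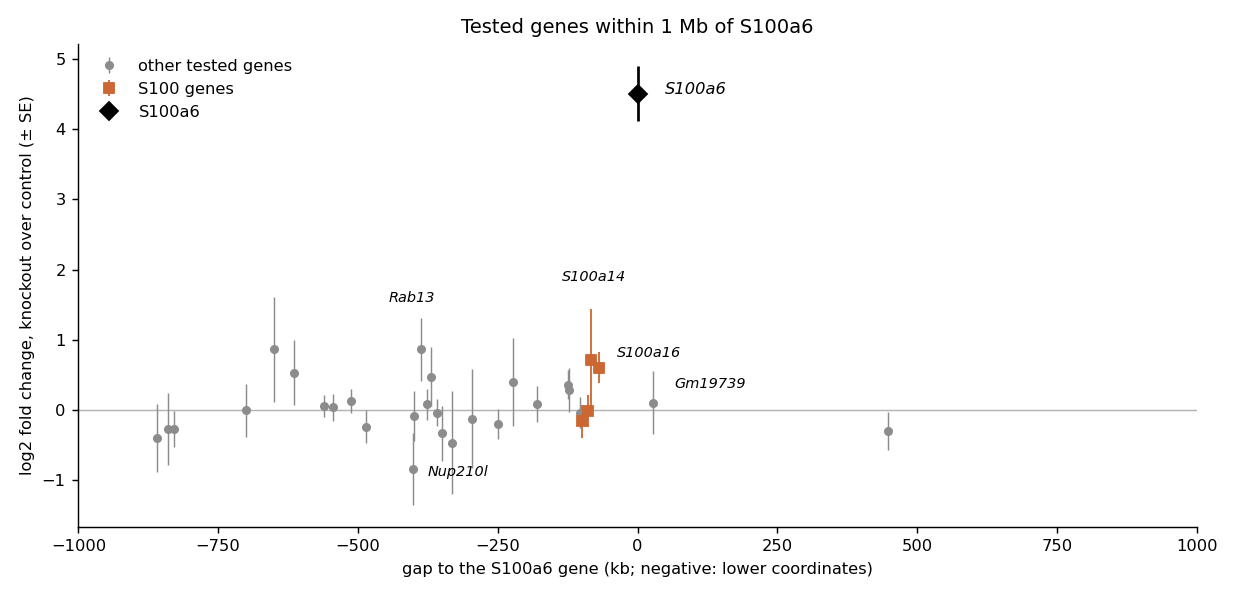
Log2 fold change (knockout over control, bars are SE) of the 31 tested genes within 1 Mb of S100a6, and of S100a6 itself, against the gap to the S100a6 gene in kb. S100a6 stands alone at 4.51, and every other gene lies between -0.84 and 0.86.

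S100 proteins act through the proteins they bind. Of 18 listed binding partners 14 were tested and none was called with edgeR, against 0.186% of all tested genes, while DESeq2 called 3 (Anxa2, Myh10 and Plat) and limma-voom 2 (Anxa2 and Plat), against 1.03% and 0.752% of all tested genes. At an unadjusted p under 0.05, 5 were higher (Anxa2, Anxa5, Anxa6, Myh10 and Plat) and none lower, against 4.35% and 2.53% of all tested genes. Genes named here and in the next lists for an unadjusted p or a DESeq2 call were named after their values were seen. The median log2 fold change was 0.42, with 10 above and 4 below 0, against 0.01 over all tested genes.

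Annexin A2 (Anxa2), a calcium-dependent membrane binder and partner of S100a10 and S100a6, was at 15.2, 15.9, 16.1 and 14.8 CPM in the controls and 36.6, 39.0, 21.1 and 36.3 CPM in the knockouts. Each knockout was above each control and knockout 3 was the closest to them. The mean went from 15.5 ± 0.64 to 33.3 ± 8.18 CPM (SD, n = 4 each), with a log2 difference of 1.10 (SE 0.21, adjusted p = 0.0766 with edgeR, 0.00038 with DESeq2). Over all alternatives its adjusted p ran from 0.00038 to 0.999, and without knockout 3 it was 0.00086. Its partner S100a10 had a log2 fold change of -0.01, and the difference between both genes was not tested.

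Annexin A6 (Anxa6), also bound by S100a6, was at 3.40 ± 1.48 and 7.65 ± 1.92 CPM (SD, n = 4 each), with a log2 difference of 1.17 (SE 0.35, adjusted p = 0.4 with edgeR), and the groups overlapped. Anxa1, a partner of S100a11, was at 0.506 ± 0.531 and 1.23 ± 0.683 CPM (SD, n = 4 each), with an adjusted p of 0.889 in edgeR. Of 12 annexins 8 were tested, 5 of the 12 being on the partner list too. All 8 had a positive log2 fold change, with a median of 0.87, and none was called by edgeR, where Anxa2, Anxa5 and Anxa6 were higher at an unadjusted p under 0.05, against 0.186% and 4.35% of all tested genes. DESeq2 and limma-voom each called Anxa2, against 1.03% and 0.752% of all tested genes.

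Among the S100 partners without an annexin fold, Cacybp, which links S100a6 to ubiquitin ligases, was at 32.6 ± 6.49 and 34.2 ± 7.60 CPM (SD, n = 4 each), with a log2 difference of 0.07 (SE 0.21). Sugt1, a chaperone cofactor bound by S100a6, had a log2 fold change of 0.34 (SE 0.19). Myh9, the non-muscle myosin heavy chain bound by S100a4, was at -0.10 (SE 0.16), and Ahnak, which docks onto the tetramer of S100a10 and annexin A2, at -0.22 (SE 0.33) on the log2 scale. Their adjusted p-values in edgeR lay between 0.818 and 0.989. Anxa11 and Ager, the receptor for extracellular S100 proteins, did not pass the filter.

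The partners Myh10 and Plat, named for their DESeq2 calls, are a second non-muscle myosin and tissue plasminogen activator, whose binding to cells S100a10 promotes. Myh10 was at 0.951 ± 0.210 and 2.68 ± 0.516 CPM (SD, n = 4 each), and the groups did not overlap. Its log2 fold change was 1.49 (SE 0.39), with an adjusted p of 0.324 in edgeR and 0.0444 in DESeq2. Plat had 13, 0, 6 and 0 counts in the controls and 77, 102, 5 and 52 in the knockouts. At 0.587 CPM knockout 3 lay below control 1, at 0.815 CPM, and the other knockouts lay above every control. The log2 fold change was 3.33 (SE 0.95, adjusted p = 0.387 with edgeR, 0.0329 with DESeq2), and without knockout 3 it was 3.66 (adjusted p = 0.0411 with edgeR).

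S100g works with the calcium channel Trpv6, which lets calcium in, and the pump Atp2b1, which drives it out, under the vitamin D receptor Vdr. Of 13 genes of calcium entry and extrusion 6 were tested, all with a negative log2 fold change and a median of -0.31, and none was called by edgeR, DESeq2 or limma-voom, against 0.186%, 1.03% and 0.752% of all tested genes. At an unadjusted p under 0.05 there was 1 lower, against 2.53% of all tested genes. This was Vdr, at 31.8, 26.1, 10.2 and 31.6 CPM in the controls and 14.7, 13.9, 1.17 and 6.85 CPM in the knockouts. The groups overlapped through control 3. Its log2 fold change was -1.43 (SE 0.56, adjusted p = 0.629 with edgeR), and -1.08 without knockout 3 (adjusted p = 0.322). Atp2b1 was at 39.4 ± 6.14 and 38.6 ± 3.91 CPM (SD, n = 4 each), and Trpv6 was at 0.135 and 0.116 CPM and did not pass the filter.

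Of 35 other EF-hand genes 28 were tested, with a median log2 fold change of 0.07, 16 above and 12 below 0. None was called by edgeR or limma-voom, 3 were higher (Tesc, Rcn2 and Cetn2) and 2 lower (Calm3 and Calml4) at an unadjusted p under 0.05, and DESeq2 called 1, the calmodulin-like gene Calml4. Of all tested genes edgeR called 0.186%, 4.35% were higher and 2.53% lower at that unadjusted p, and DESeq2 called 1.03%. Of the genes for calmodulin, the general calcium sensor of the cell, Calm2 was at 200 ± 15.8 and 211 ± 12.8 CPM and Calm3 at 40.9 ± 4.39 and 31.1 ± 3.96 CPM (SD, n = 4 each). Their log2 fold changes were 0.08 (SE 0.16) and -0.40 (SE 0.16), with adjusted p-values of 0.982 and 0.664 in edgeR.

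**Figure D4:**
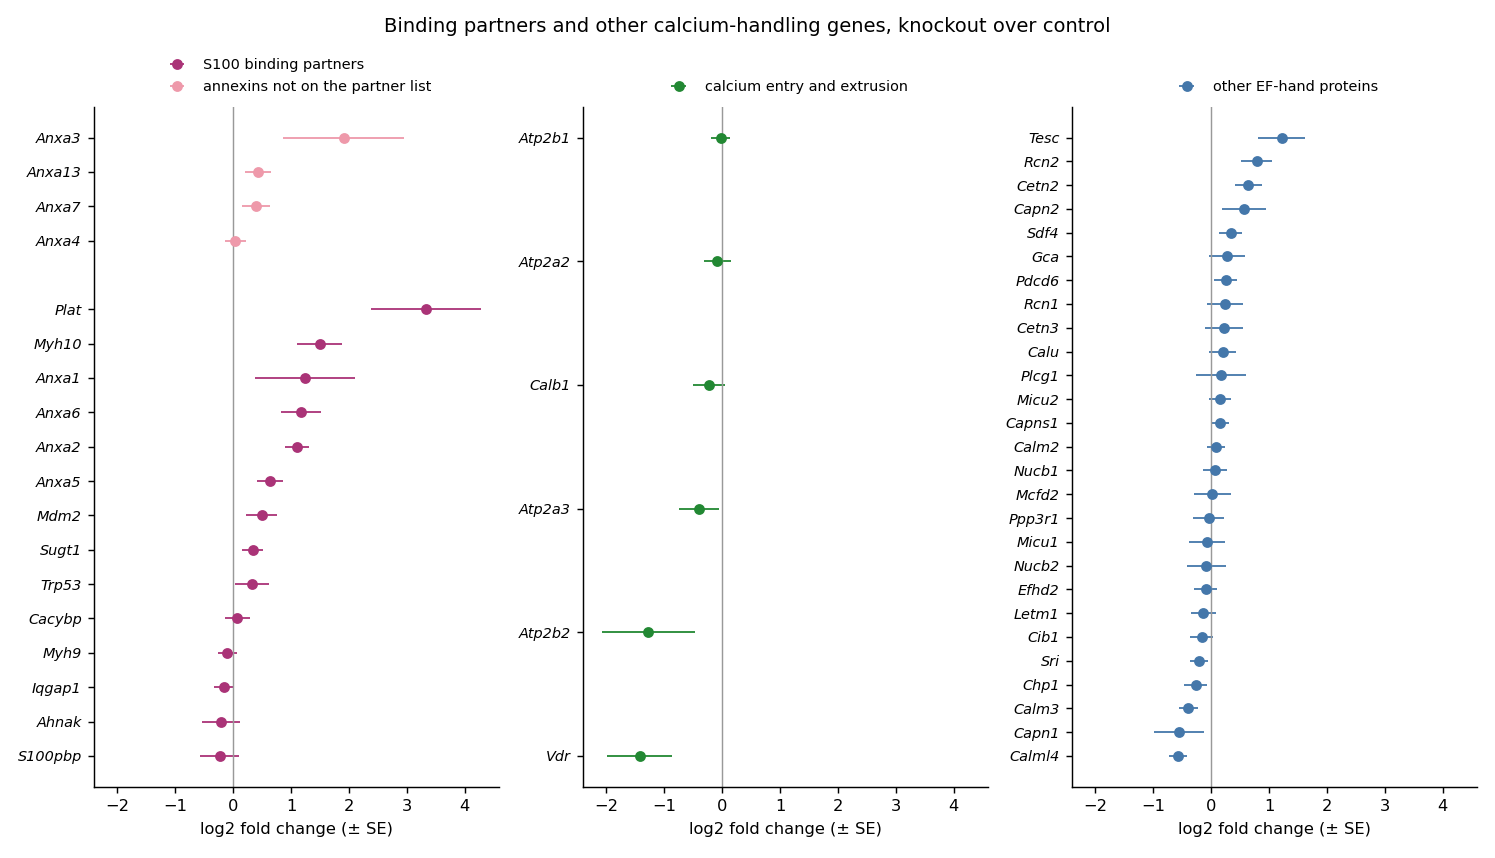
Log2 fold change (knockout over control, bars are SE) of the tested S100 binding partners and other annexins, genes of calcium entry and extrusion, and all but 1 of the other EF-hand genes. Plat, at 3.33, is the highest partner, and the 6 calcium entry and extrusion genes lie at or below -0.03.

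Finally, the genes whose pattern over the 8 libraries lay closest to that of S100a6 were sought, by the root mean square of the differences between log2 CPM values (prior count 1), each centred on the gene's own mean. The closest of the 13439 tested genes was Notum, a secreted enzyme that inactivates Wnt ligands, at 0.317. Notum was at 0.313, 0.317, 0.897 and 0.789 CPM in the controls and 20.3, 22.2, 11.3 and 14.1 CPM in the knockouts. As with S100a6, the knockouts of set 1 were above those of set 2.

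Of the next 4 genes, Depdc1a stood at 0.831, Plod2 (a collagen lysyl hydroxylase) at 0.855 and Bex4 at 0.859. None of these lies within 2 Mb of S100a6, though Depdc1a is also on chromosome 3. In the controls Depdc1a, Plod2 and Bex4 had means of 0.123, 0.132 and 0.175 CPM, below the level of 3 counts in any control library. With a prior count of 5 Notum stayed closest, at 0.322, and the other 4 were Spock2, H19, Gulo and Prss56. With a prior count of 1, S100a16 was the closest of the other S100 genes, at place 671 and a distance of 2.07, and S100g the farthest, at place 13335. Likeness here follows the difference between the groups, which chose S100a6, and it is a description.

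**Figure D5:**
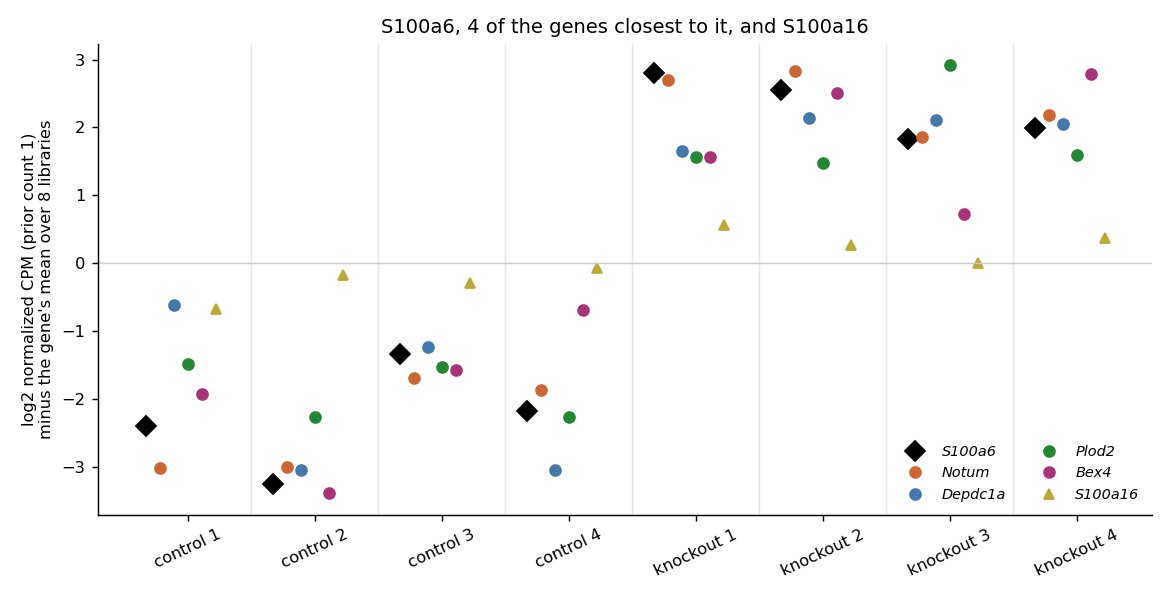
Log2 normalized CPM (prior count 1) minus the gene's mean over the 8 libraries, for S100a6, 4 of the genes closest to it and S100a16, in each library. S100a6 and Notum lie close in most libraries, and S100a16 stays within 0.67 of its mean.

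Among marker lists of other states, the summed level of 11 fetal or regenerative epithelial genes did not overlap between the groups, at 42.2 to 48.2 CPM in the controls and 60.3 to 104 CPM in the knockouts, with Msln at 0. Krt7 made up most of each control sum, at 32.9 to 42.8 CPM, and its own groups overlapped, with 31.6 to 64.8 CPM in the knockouts. Clu made up 36.8 of the 104 CPM in knockout 1. Anxa1 and Anxa3 are on this list too. Of its 6 tested genes all had a positive log2 fold change, with a median of 1.57, none was called by edgeR and 1 was higher at an unadjusted p under 0.05, against 4.35% of all tested genes. This was the secreted chaperone gene Clu, at 0.316 to 0.815 CPM in the controls and at 36.8, 8.21, 3.29 and 3.88 CPM in the knockouts, with an adjusted p of 0.079 in edgeR and 6.8e-07 in DESeq2, which called no other gene of the list. limma-voom called none. Of all tested genes edgeR called 0.186%, DESeq2 1.03% and limma-voom 0.752%. Without knockout 3 the adjusted p of Clu was 0.0488 in edgeR. With the library set as a term it was 0.0469, a call. The part of this list in the level of S100a6 was not tested.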

How the data were processed

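The S100 genes, gene lists and comparisons were chosen with earlier results of these data known. Paneth cells were sorted from crypts of 4 control and 4 knockout mice, and RNA was copied with an oligo-dT primer and amplified by 16 PCR cycles (Smart-seq2). The authors aligned the reads to mm10 with GSNAP and assigned those that mapped uniquely to genes with featureCounts 1.6.3, and the deposited values are raw counts per gene and library, without normalization. The strand setting is not given in the sources used here, and the reads carry no molecular identifiers, so PCR copies were counted and limits from counts cover counting error only. Groups follow the labelled genotypes, and the p-values of the fits set the difference between groups against the spread between libraries within them.

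Of 53801 genes, 53620 had a symbol. The 92 spike-in rows were left out. Totals were between 13037832 and 14380240, and 3 counts correspond to between 0.172 and 0.352 CPM. No 2 libraries were closer than sampling noise allows (lowest chi-square per degree of freedom 10.8). In R 4.3.3 with edgeR 4.0.16, TMM factors and robust quasi-likelihood fits were computed for 13439 genes that passed filterByExpr (minimum count 10, minimum total 15), with Benjamini-Hochberg adjustment over all of them. Standard errors were approximated as the log2 fold change divided by the square root of F. DESeq2 1.42.0, limma-voom (limma 3.58.1), other scalings, filters and thresholds, the library set as a term or within sets, and each library left out in turn were alternatives. The functions were tested on simulated data. S100a4 and S100a9 took exact permutation tests over 70 assignments of mean CPM. Genes were named by a rule: all counted S100 genes, called list members and neighbours, a fixed set of partners and calcium genes, the tested genes flanking S100a6 and the 5 closest to it. A few named by this rule enter the counts but are left out of the text. Promoters came from the RefSeq table of GRCm38.p6, and gene spans from the exon coordinates given with the deposited counts. Transcripts compared for sequence identity were those of GENCODE M21. Protein sequences were not used here.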

Additional observations from a re-analysis of the deposited data

Results flagged for a closer look

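Of 18 groups of 4 libraries examined, 1 had a library far from its others: S100a9 in the controls, where control 1 held 1 count (0.0627 CPM) and the other 3 held 0, so that its gap took the whole range (a ratio of 1.0 by Dixon's test). Chance flags about 1 group in 20, and a single count is below the floor of 3 counts.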

How the results depend on the processing

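The number of genes called over the whole table, 25, was 290 with no filter on low counts, 13 with at least 10 counts in every library, 138 with DESeq2, 101 with limma-voom, 148 within library set 1, 2 within library set 2, 38 at a false discovery rate of 10%, and 10 to 152 with 1 library left out. It was 152 without knockout 3, 10 without control 3, and 11 to 15 without control 1, 2 or 4 or knockout 2. The number of genes called within 1 Mb of S100a6 was 0 in every alternative, and no S100 gene other than S100a6 was called in any. The count of S100 genes, which was 1 through S100a6 and says nothing of stability since its values chose the family, was 0 within set 2. There its log2 fold change was 3.64. With 1 library left out it was 4.26 to 4.90. The 0 binding partners called became 2 with no filter, 3 with DESeq2, 2 with limma-voom, 1 within set 1 and 1 at 10%, and 0 to 2 with 1 library left out, 2 without knockout 3. The 0 calcium entry and extrusion genes became 1 within set 1 (Atp2a3), and the 0 other EF-hand genes 1 with DESeq2 (Calml4) and 0 to 1 with 1 library left out, 1 without knockout 3 (Cetn2). For Anxa2, 5 alternatives passed the threshold. The cause was not tested.

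The log2 fold change of S100a13, -0.02, was 0.086 with limma-voom, 0.081 within set 1, and -0.16 to 0.14 with 1 library left out. That of S100a10, -0.01, was 0.0087 with no filter, 0.31 with limma-voom, 0.054 within set 1, and -0.24 to 0.28 with 1 library left out. That of S100a11 was -0.049 within set 2. Other scalings moved the median log2 fold change of all genes by -0.044 to 0.005. No paired analysis was possible because no label ties an animal of one group to a littermate in the other. The replicate numbers were given here, and the animal number that control 4 and knockout 4 share would make 1 pair. Low counts limit S100g, S100a14 and S100a4, for which smaller differences were not detectable at this depth.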
